A study of Mus musculus with 3 samples.

Results

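The genes that build and move the actin cytoskeleton were described here in the choroid plexus epithelium (CPE) of the mouse: myosins, actins, alpha-actinins and the genes of the microvillus core. Members were chosen by name. A probe was taken when its gene symbol on the array was a numbered *Myo*, *Myh* or *Myl* gene, *Actn1* to *Actn4*, a cytoplasmic or muscle actin, a plastin (*Pls3*, *Lcp1*), or *Vil1*, *Vil2*, *Msn*, *Rdx*, *Espn*, *Eps8* or *Fscn1*. This gave 119 probes among the 41174 of the array, and 62 genes among its 21597 gene names, and none of them carried the name *Pls1*. *Vil2* is the older symbol of ezrin (*Ezr*), and *Myo15* that of *Myo15a*.

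The CPE came from 3 healthy, untreated, female C57BL/6 mice of 18 to 21 weeks, each a separate animal hybridized on 1 array. The epithelium was cut by laser from the lateral ventricles in frozen brain sections, and its RNA was amplified and labeled with Cy5. Each array also carried a common reference in Cy3, RNA of the retinal pigment epithelium and choroid (RPE/choroid) of C57BL/6 mice. The dyes were not swapped, so a dye bias of a probe stays in its ratio, and the reference is 1 RNA, so the spread between animals of the reference tissue is not in the errors.

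CPE cells carry a dense apical coat of microvilli that faces the cerebrospinal fluid. The core of a microvillus is a bundle of actin filaments, held together by bundling proteins, tied to the membrane by the ezrin, radixin and moesin (ERM) linkers and by class I myosins, and rooted in a web of non-muscle myosin II. Unconventional myosins move vesicles and membrane along actin, whereas the sarcomeric myosins and actins form the contractile apparatus of muscle fibres.

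The labelled tissue was set beside markers of the CPE and of other cell types. These lists were chosen with earlier results of these data known, so they are no independent check. All 10 CPE markers on the array were in the high class (>90th percentile, P, of all CPE intensities), and 9 of them were higher in CPE than in the reference, among them the klotho gene *Kl* with a log2 ratio of 5.42 and the serotonin receptor gene *Htr2c* with 5.09. Of 12 RPE and melanocyte markers 10 were lower in CPE, and all 9 photoreceptor markers tested were lower. Markers of ependyma and motile cilia, which line the same ventricle, were higher for 5 of 6 genes, with a summed CPE intensity of 7118 to 14467 against 1217 to 1778 in the reference; their part in the results below was not tested. The arrays differed in brightness: 24079 probes were well above background in CPE of mouse 1, 18933 in mouse 2 and 35233 in mouse 3, where the background signal was also the highest (363 intensity units against 81.2 and 82.6). In such bulk samples fewer cells of a type and less RNA per cell cannot be told apart.

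Before the values, the sequences that set some members apart are shown. Serum response factor, a regulator of actin and muscle genes, binds the CArG box, a motif whose reverse complement is again a CArG box, so that 1 search covers both strands. Of 52 member genes with a RefSeq promoter window (GRCm38.p6, 250 bases before the transcription start), 10 held a CArG box, which is 19.231%, while 439 of 27025 genes in the whole table did, which is 1.624%. The actins held it in 3 of 4 windows and the myosin light chains in 4 of 8. Only the strict form was searched, CC and GG with A or T alone between them. Boxes with another base were not counted, and *Acta2* was the actin with a window but no strict box. Each line below gives 50 bases in the direction of the gene, 5′ to 3′, with the CArG box in capitals.
*Acta1*, chr8:123894819-123894868, minus strand: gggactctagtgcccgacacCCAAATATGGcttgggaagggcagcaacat
*Actc1*, chr2:114052893-114052942, minus strand: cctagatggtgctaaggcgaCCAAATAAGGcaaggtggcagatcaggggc
*Actg1*, chr11:120348556-120348605, minus strand: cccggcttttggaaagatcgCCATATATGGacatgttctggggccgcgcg
*Myh4*, chr11:67237688-67237737, plus strand: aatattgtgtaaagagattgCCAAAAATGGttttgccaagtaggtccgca
*Myl3*, chr9:110763573-110763622, plus strand: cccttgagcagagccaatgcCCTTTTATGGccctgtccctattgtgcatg
*Myl6*, chr10:128493030-128493079, minus strand: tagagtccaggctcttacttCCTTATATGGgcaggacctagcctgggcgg
*Myl7*, chr11:5898814-5898863, minus strand: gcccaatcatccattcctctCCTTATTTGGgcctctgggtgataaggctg
*Myl9*, chr2:156775283-156775332, plus strand: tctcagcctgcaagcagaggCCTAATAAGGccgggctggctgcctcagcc
*Myo1e*, chr9:70207298-70207347, plus strand: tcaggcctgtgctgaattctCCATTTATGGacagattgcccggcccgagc
*Vil1*, chr1:74409291-74409340, plus strand: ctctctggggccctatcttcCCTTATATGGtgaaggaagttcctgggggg

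The box lay between 32 and 161 bases before the start of these genes. A match is a description of the letters and no measure of binding. The 10 genes did not share a direction: *Myo1e* was higher in CPE than in the reference, *Acta1*, *Actc1*, *Myh4* and *Myl3* were lower, and *Actg1*, *Myl6*, *Myl7*, *Myl9* and *Vil1* did not pass the test described next. Some members had no window in the table and were not searched, among them *Actb*, *Actg2*, *Actn3*, *Myh11*, *Eps8*, *Myo1d*, *Myo5b* and *Myo7b*.

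For each probe the CPE percentile gave its rank among all probes, and the log2 ratio of CPE over reference gave the difference between the tissues. The rank places a probe on the array; it does not order the amounts of RNA of different genes, since probes bind unequally. By rank, 20 member probes of 16 genes showed high expression (16.8%, where the class holds 10% of all probes by its definition), 53 moderate (50–90th P), 44 low (10–50th P) and 2 very low (<10th P) expression. The high class held 19 probes that were above the 90th P in every mouse. By ratio, 87 member probes of 55 genes could be tested. A probe was tested when CPE or the reference, or both, stood clear of background on every array. In all 87 the reference did. The CPE signal did in 62 of the 119 member probes (52.1%), and in 44.9% of all probes on the array.

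**Figure D1:**
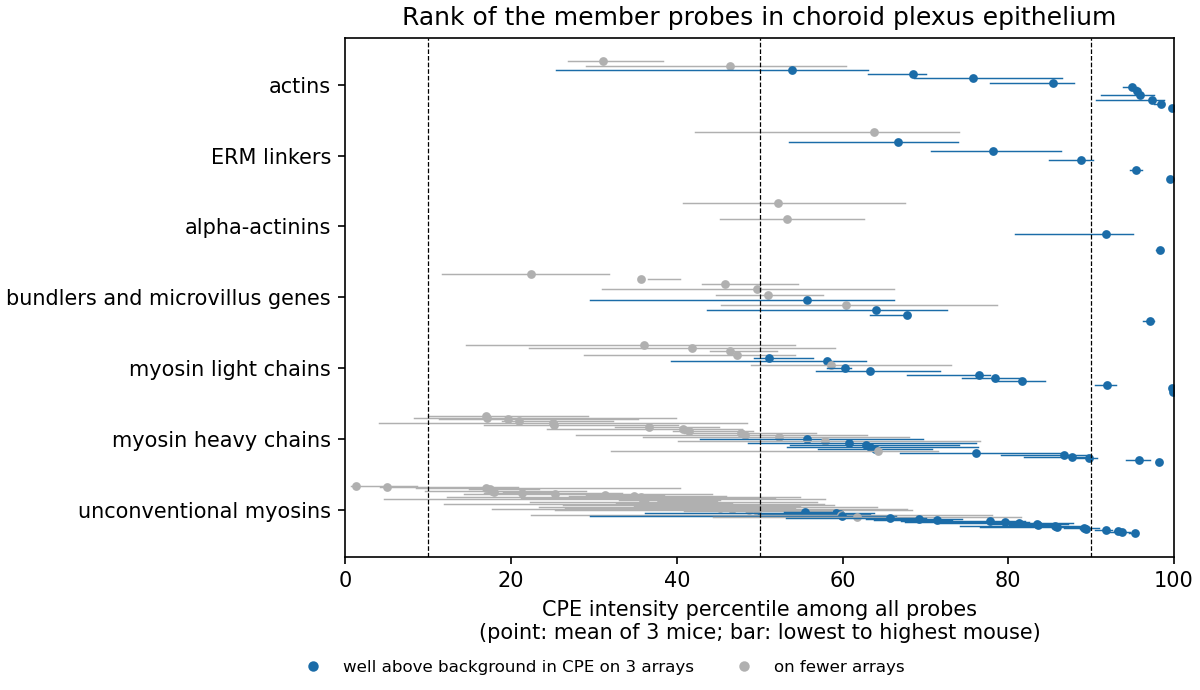
CPE intensity percentile of the 119 member probes by gene group, where a point is the mean of 3 mice, a bar runs from the lowest to the highest mouse, and dashed lines mark the 10th, 50th and 90th P. Actins, ERM linkers and light chains hold probes close to the 100th P, and the grey probes, not above background in every mouse, lie mostly below the 60th P with long bars.

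The test (limma, Benjamini-Hochberg adjustment over all 25841 probes tested) called a probe past the threshold at an adjusted p below 0.05 and a change of at least 2-fold. It called 28 of 87 member probes (32.2%), where it called 17.3% of all probes tested. Testing against a 2-fold change (limma's treat) left 12 member probes (13.8%, where it called 5.47% of all probes), those of *Acta1*, *Acta2*, *Actn1*, *Myh2*, *Myh4*, *Myh7*, *Myh8*, *Myl1* and *Myo5c*. Of the 28, 10 probes of 7 genes were higher in CPE (7.09% of all probes were) and 18 probes of 13 genes were lower (10.2% of all probes were). All 28 had the same sign in the 3 mice, which the threshold itself favours and which is no separate support. With the brightest probe of each gene alone, 18 of 54 genes were past the threshold, which is 33.3% against 20.2% of all genes, and of these 7 were higher and 11 lower (8.91% and 11.3% of all genes were). The split of higher against lower depended on the scaling: 35.7% of the called member probes were higher after loess, and 56.2% when each array was only centred on its median, a scaling that moved the median ratio of all probes from -0.04 to 0.09 and that of the high class from 0.20 to 0.90. Bright probes with a ratio near 0 after loess tended to lie above 0 after median centring, and calls that depend on this are given beside each gene.

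**Figure D2:**
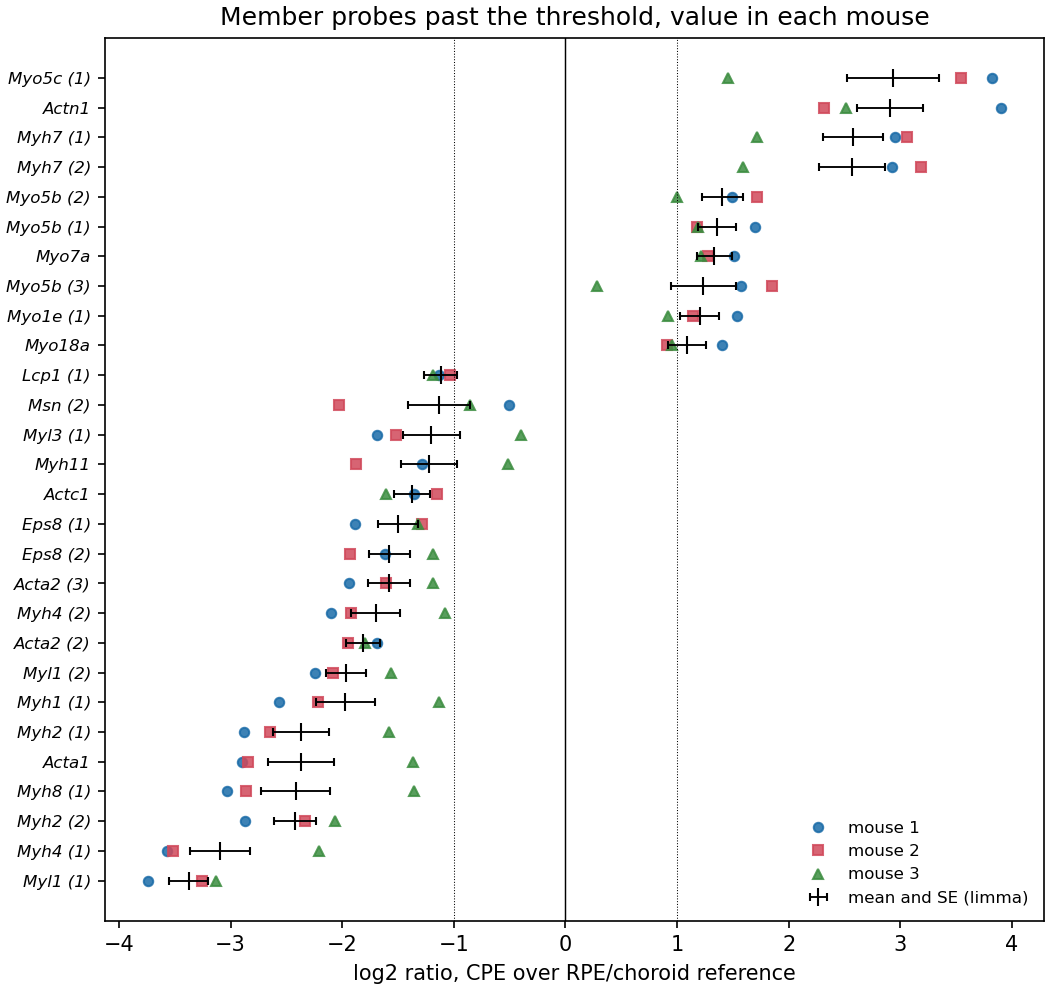
Log2 ratio of CPE over RPE/choroid reference in each mouse for the 28 member probes past the threshold, with the limma mean and SE as bars; numbers in brackets count a gene's probes from the brightest, and dotted lines mark 2-fold. Higher probes belong to unconventional myosins, *Myh7* and *Actn1*, lower ones mostly to sarcomere genes, and in 20 of 28 mouse 3 lies nearest to 0.

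Mouse 3 had the smallest ratio in 20 of these 28 probes (71.4%), and in 60.6% of all 4462 probes past the threshold. It was the array with the high background signal, whose part in this was not tested.

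The cytoplasmic actins showed high expression and no call. *Actg1*, the gamma actin of non-muscle cells (probe on mm8 chr11:120162222-120162281), stood at the 99.8, 99.7 and 99.8th P in the 3 mice, and its log2 ratios were -0.34, -0.93 and -0.49. Its mean of -0.59 (SE 0.17, limma adjusted p = 0.0307) was below 2-fold, and it turned to 0.39 with median centring. *Actb*, the beta actin often used as an internal standard, ranked at the 98.8, 97.7 and 98.6th P with ratios of 0.24, -0.59 and 0.32; its mean of -0.01 (SE 0.21) became 0.82 with median centring. Mouse 2 was the lowest of the mice for both genes. The second *Actb* probe matched a place on chromosome X, where the gene itself lies on chromosome 5, so its target is uncertain.

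The muscle actins were lower in CPE with 4 probes of 3 genes. *Acta2*, the actin of vascular smooth muscle, has 5 probes, and they disagreed. Its probe at mm8 chr19:34307567-34307626 gave ratios of -1.69, -1.95 and -1.80, with a mean of -1.81 (SE 0.15, adjusted p = 0.000124), and a dimmer probe gave a mean of -1.58 (SE 0.19). The brightest probe, nearer the 5′ end, read -0.36 in mouse 1, -3.21 in mouse 2 and -0.37 in mouse 3 and did not pass (mean -1.32, SE 0.51), whereas without mouse 1 its mean was -1.79 and passed. Without mouse 2 the mean was -0.37. The CPE level of this probe varied more between mice than that of any other named member (SD 1.57, against 0.11 for the reference level). *Actg2*, the enteric smooth muscle actin, had ratios of -0.35, -1.72 and -0.65, a mean of -0.91 that passed only without mouse 1 (-1.18) or without mouse 3 (-1.03).

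*Acta1*, the skeletal muscle actin, was lower by 5.17-fold, with log2 ratios of -2.90, -2.84 and -1.36 (mean -2.37, SE 0.30). *Actc1*, the cardiac actin, was lower by 2.59-fold, with -1.36, -1.15 and -1.61 (mean -1.37, SE 0.16), a call lost when tested against 2-fold (limma adjusted p = 0.31). The 3 mice of both genes lay below 0. Over the group 4 of 11 actin probes tested were lower and none was higher by the limma call, although *Actb* and *Actg1* lie above 0 with median centring. Among all probes tested, 10.2% were lower and 7.09% were higher.

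**Figure D3:**
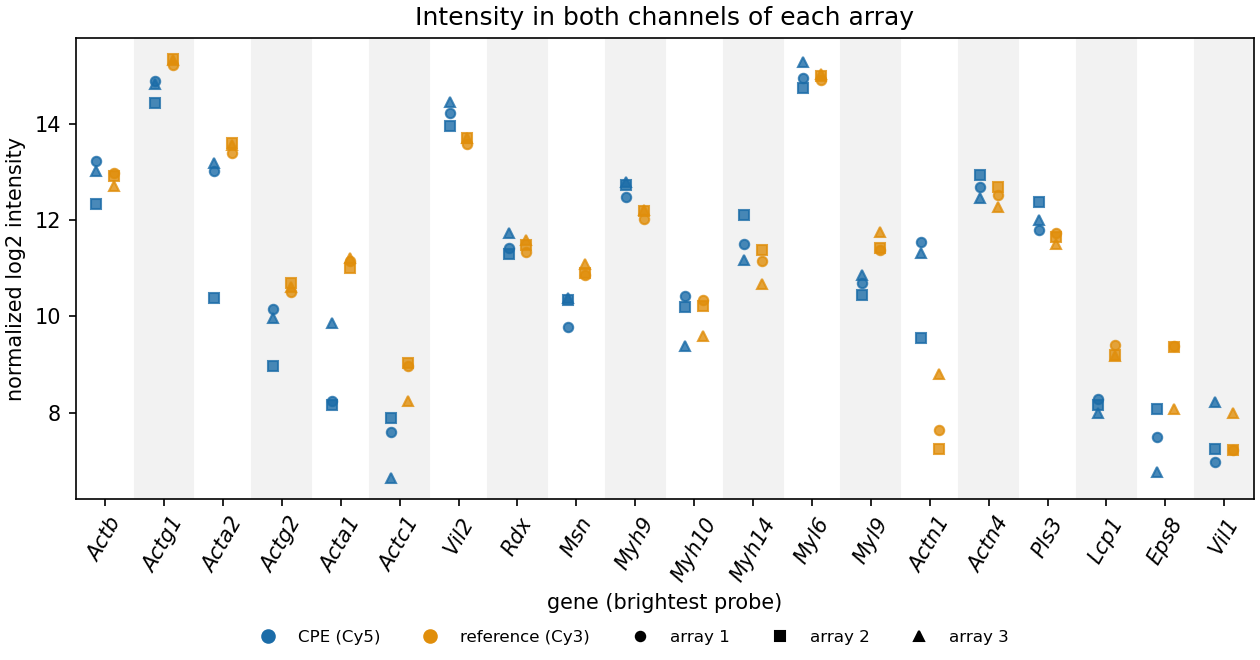
Normalized log2 intensity in CPE (Cy5) and in the reference (Cy3) on each of the 3 arrays, for the brightest probe of 20 member genes; compare the channels within a gene, not genes with each other. Among others, CPE lies below the reference on every array for *Acta1*, *Actc1*, *Lcp1* and *Eps8* and above it for *Actn1*. Mouse 2 is far below the other mice for *Acta2*.

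Smooth muscle and pericyte markers, which could accompany *Acta2*, were measured in both tissues. Of 11 tested, 2 were lower and 1 was higher in CPE. Transgelin (*Tagln*) had a log2 ratio of -1.57, *Synpo2* of -1.12 and the receptor gene *Notch3* of 1.05. The summed intensity of the 12 markers was 7425 to 9001 in CPE and 9772 to 10304 in the reference, and their part in the *Acta2* values was not tested. *Myh11*, the smooth muscle myosin heavy chain, had ratios of -1.28, -1.88 and -0.51 (mean -1.22, SE 0.25, adjusted p = 0.00728), and the call was lost without mouse 2 (-0.90) and with median centring (-0.82). *Myl9*, the regulatory light chain of smooth muscle and non-muscle myosin, stayed below 2-fold with -0.69, -0.99 and -0.90, at the 91.9th P.

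Among the ERM linkers, *Vil2* (ezrin, mm8 chr17:6587789-6587828), the linker typical of epithelial microvilli, ranked at the 99.6, 99.5 and 99.7th P. Its log2 ratios of 0.64, 0.25 and 0.75 gave a mean of 0.55 (SE 0.17, adjusted p = 0.0348), below 2-fold, and 1.45 with a call when arrays were median centred. The brightest *Rdx* (radixin) probe lay between the 94.7 and 96.1th P in the 3 mice, with ratios of 0.09, -0.19 and 0.15. These values scatter around 0, and the mean of 0.01 (SE 0.16) did not pass, nor did 0.73 with median centring. *Msn* (moesin), the linker known from leukocytes and endothelium, gave ratios of -1.08, -0.56 and -0.71 with its brightest probe, which is the one nearest the 3′ end (mean -0.78, SE 0.17). Its second probe was lower (mean -1.13, SE 0.28), with -0.51, -2.02 and -0.86, and this call was lost without mouse 2 (-0.68), with median centring (-0.80), with array weights and with the scanner's log ratio. All 3 mice lay below 0 for these *Msn* probes. The dimmest *Msn* probe, above background in 2 CPE samples, read -0.03, -0.81 and 0.07 (mean -0.26, SE 0.21) and did not pass. Leukocyte markers were lower in CPE for 5 of 10 genes tested, with a summed intensity of 4790 to 5280 against 11501 to 12431, while endothelial markers were lower for 1 and higher for 1 of 9. Their part in the *Msn* values was not tested.

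Of the bundling genes, *Lcp1* and *Eps8* held the calls, all lower. *Pls3* (T-plastin), the plastin of many solid tissues, showed high expression at the 96.2, 97.6 and 96.8th P, with ratios of 0.05, 0.72 and 0.49 (mean 0.42, SE 0.18), and a call of 1.18 with median centring only. *Lcp1* (L-plastin), the plastin of leukocytes, was lower with its brighter probe, at -1.13, -1.04 and -1.19 (mean -1.12, SE 0.15). Its dimmer probe, above background in 1 CPE sample, had a mean of -0.08, and the call of the brighter one was lost with median centring (-0.76) or without background correction (-0.98). *Fscn1* (fascin), a bundler of protrusions, came to 1.53, 0.84 and 0.52 (mean 0.96, SE 0.21), just under 2-fold, and passed without mouse 2 (1.02), without mouse 3 (1.18), with array weights and with the scanner's log ratio.

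*Vil1*, *Espn*, *Myo1a* and *Myo7b*, known from brush borders, were dim. Not all microvillus genes were dim. *Vil2* ranked at the 99.6th P, and of 21 microvillus scaffold and myosin cargo genes on the array 4 were in the high class. *Vil1* (villin) stood at the 30.9, 42.3 and 66.3th P with its brighter probe and was well above background in 1 of 3 CPE samples. *Espn* (espin), a bundler of sensory and brush border protrusions, was above background in 2 samples with its brighter probe and could not be tested with it. *Eps8*, an actin capping and bundling gene that regulates microvillus length, was lower with both probes: the brighter read -1.89, -1.29 and -1.32 (mean -1.5, SE 0.18) and the dimmer -1.62, -1.93 and -1.19 (mean -1.58, SE 0.18). All 6 of these values lay below -1, but the dimmer probe was above background in CPE of 2 mice and was tested through the reference. Tested against 2-fold, neither passed (limma adjusted p = 0.171 and 0.112). Its percentiles in CPE were 57.1, 66.2 and 29.6 for the brighter probe. *Myo1a*, the brush border class I myosin, was above background in CPE of 1 mouse with either probe, and *Myo7b*, the brush border class VII myosin, in at most 2.

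The alpha-actinins cross-link actin filaments. *Actn1*, a non-muscle form, was among the largest differences of the members, 7.53-fold higher in CPE. Its single probe (mm8 chr12:81087299-81087735) read log2 ratios of 3.90, 2.32 and 2.52 (mean 2.91, SE 0.30, adjusted p = 0.000303), at the 95.1, 80.8 and 94.8th P. Mouse 1 was the highest and mouse 2 the lowest in rank, yet all lay above 2. *Actn4*, the other non-muscle form, ranked at the 98.2, 98.6 and 97.8th P with ratios of 0.17, 0.24 and 0.19 (mean 0.20, SE 0.15), and passed at 1.03 with median centring only. The muscle forms *Actn2* and *Actn3* were above background in 1 and 2 CPE samples and had means of 0.02 and -0.21.

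Non-muscle myosin II, the motor of the terminal web and the contractile ring, is built from the heavy chains *Myh9*, *Myh10* and *Myh14* and light chains such as *Myl6* and *Myl9*. *Myh9* stood at the 97.8, 98.3 and 98.3th P with ratios of 0.45, 0.56 and 0.59 (mean 0.53, SE 0.15). *Myh14* stood at the 95.3, 97.1 and 94.2th P with 0.36, 0.72 and 0.49 (mean 0.52, SE 0.16). Both lay above 0 in all mice and below 2-fold, and median centring put them at 1.33 and 1.26, past the threshold. The brightest *Myh10* probe showed moderate expression (87.8th P) and values around 0, at 0.07, -0.01 and -0.19. *Myl6*, the essential light chain of these motors, was at the 99.8, 99.8 and 99.9th P, with ratios of 0.06, -0.25 and 0.24 (mean 0.02, SE 0.17), and with median centring its mean was 0.99 and its other probe was called higher.

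Every call among the unconventional myosins was higher in CPE: of 28 probes tested, 7 probes of 5 genes were higher, none was lower and 21 did not pass. Among all probes tested, 7.09% were higher and 10.2% were lower. All 7 probes also passed with median centring, but only that of *Myo5c* when limma tested against a 2-fold change, and the scanner's own log ratio put probes of *Myo5a* and *Myo9a* past the threshold on the lower side. *Myo5c*, a class V motor of secretory and other exocrine epithelia, had the largest ratio: 3.82, 3.54 and 1.46 (mean 2.94, SE 0.41, adjusted p = 0.00134), a 7.67-fold difference. It was high in mice 1 and 2 and lower in mouse 3, and its other probe, dim in both tissues, read 0.14. *Myo5b*, which carries recycling vesicles to the apical membrane, was higher with 3 of 4 probes. The brightest of them read 1.70, 1.18 and 1.19 (mean 1.36, SE 0.17), a second 1.49, 1.72 and 1.00 (mean 1.40, SE 0.18) and the dimmest of the 3 read 1.57, 1.85 and 0.28 (mean 1.24, SE 0.29), a call lost without mouse 1 (1.07) and without mouse 2 (0.93). *Myo5a*, the motor of melanosomes and neuronal vesicles, had values on the other side: -1.09, -0.67 and -0.85 with the brighter probe (mean -0.87, SE 0.16) and -1.02, -0.82 and -1.05 with the dimmer (mean -0.96, SE 0.15). These stayed short of 2-fold, with all 6 values below 0, and the dimmer probe passed on the lower side without mouse 2 (-1.03).

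The partners of *Myo5a* on the melanosome, melanophilin (*Mlph*) and *Rab27a*, were far lower in CPE, with log2 ratios of -3.16 and -2.87. The reference tissue is pigmented: the 12 RPE and melanocyte markers summed to 282243 to 315033 intensity units there and to 19015 to 22231 in CPE. The sums in the reference are lower bounds, since *Dct*, a melanin synthesis gene among them, was saturated there on all 3 arrays. The part of pigment cells in the *Myo5a*, *Mlph* and *Rab27a* values was not tested. *Myo7a*, a motor of the RPE and of hair cells, was higher in CPE, at 1.51, 1.28 and 1.21 (mean 1.33, SE 0.15, limma adjusted p = 0.00056), and ranked at the 95.3, 95.5 and 94.6th P. The 3 mice lay close together. Whirlin (*Whrn*), a scaffold of stereocilia, had a ratio of 1.13.

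*Myo1e*, a class I motor at the membrane, was higher at 1.54, 1.15 and 0.92 (mean 1.20, SE 0.17). *Myo18a*, a myosin that associates with the Golgi, was higher at 1.40, 0.91 and 0.95 (mean 1.09, SE 0.17), and its call was lost without mouse 1 (0.93). Both were above 0 in all mice. *Myo1d* and *Myo6* also showed high expression, at the 93.3 and 93.7th P, with means of -0.07 (SE 0.15) and -0.49 (SE 0.15). *Myo6*, the motor that moves toward the minus end of actin and serves endocytosis at the base of microvilli, read -0.63, -0.38 and -0.44, all below 0, but 0.21 on average with median centring.

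The sarcomeric genes of fast and developing skeletal muscle were mostly lower in CPE. Of 12 probes tested for *Myh1*, *Myh2*, *Myh3*, *Myh4*, *Myh8*, *Myl1*, *Acta1* and *Actn3*, 9 probes of 6 genes were lower and none was higher. This subset was formed after the values were seen, which favours such a count. By the same test, 10.2% of all probes tested were lower and 7.09% were higher. *Myl1*, the essential light chain of fast fibres, was lower by 10.4-fold with its brighter probe. This probe read -3.74, -3.25 and -3.13 (mean -3.38, SE 0.18, adjusted p = 1.68e-05). The dimmer *Myl1* probe was also called lower, by 3.90-fold (mean -1.97, SE 0.18). *Myh4*, the fast heavy chain of type IIb fibres, read -3.56, -3.51 and -2.21 with its brighter probe (mean -3.10, SE 0.27). The dimmer *Myh4* probe had a mean of -1.70 (SE 0.22), a call lost when tested against 2-fold (limma adjusted p = 0.106). *Myh2* (type IIa) came to -2.37 (SE 0.25) and -2.42 (SE 0.19) with its tested probes, the latter above background in CPE of 2 mice only. *Myh8* (perinatal) came to -2.42 (SE 0.31) and *Myh1* (type IIx) to -1.97 (SE 0.27). Every mouse lay below -1 for the called probes of these 4 heavy chains, with mouse 3 nearest to 0. The fast heavy chains are close copies of each other, so that the signal of 1 gene's probe can hold RNA of another.

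**Figure D4:**
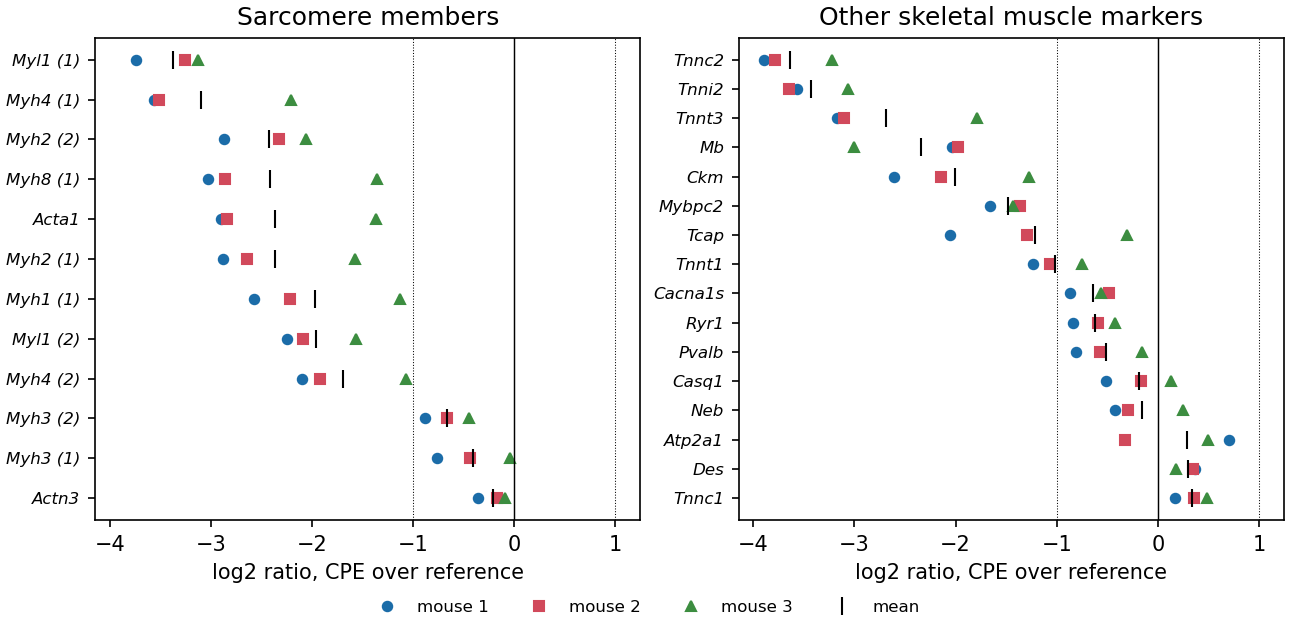
Log2 ratio of CPE over reference in each mouse for the 12 tested probes of sarcomere members (left) and for 16 other skeletal muscle marker genes (right), with the mean as a black tick and 2-fold as dotted lines. The 9 member probes and the 8 markers past the threshold all lie on the lower side, and mouse 3 is the nearest to 0 in most of them.

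Other skeletal muscle markers moved with these members. Of 16 tested, 8 were lower and none was higher, where 11.3% of all genes were lower and 8.91% higher by the brightest probe. The troponin genes *Tnnc2* and *Tnni2* had ratios of -3.64 and -3.43, and *Tnnt3* of -2.69. The 18 markers on the array summed to 17706 to 18846 intensity units in the reference and to 3964 to 6384 in CPE. In CPE 8 of the 18 were above background on all arrays, near the share of all probes (44.9%). None of the 18 was at background in CPE on every array, where 4974 of all 41174 probes were. The part of muscle fibres in the reference or in the dissected tissue was not tested.

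*Myh7*, the heavy chain of slow muscle and heart, went the other way. Its probes gave 2.95, 3.06 and 1.72 (mean 2.58, SE 0.27, adjusted p = 0.000329) and 2.92, 3.19 and 1.59 (mean 2.57, SE 0.29). It was 5.96-fold higher with the brighter probe, which ranked at the 89.5, 90.7 and 87.8th P. Its neighbour and close copy *Myh6* could not be tested, with 0.97 for its brighter probe, above background in 2 CPE samples. Without mouse 2 that probe was tested and higher (1.24, SE 0.29). Binding of *Myh6* RNA to the *Myh7* probes was not tested. The light chains that pair with *Myh7* did not share its direction: *Myl2* had a mean of -0.12 (SE 0.15), and *Myl3* was lower at -1.69, -1.52 and -0.39 (mean -1.20, SE 0.26), a call that was lost without mouse 1 (-0.96) and with median centring (-0.92). *Myl4*, an atrial and embryonic light chain, read 1.21, 1.18 and 0.48 (mean 0.96, SE 0.19) and passed without mouse 3 (1.19), with median centring (1.20), with array weights and with the scanner's log ratio.

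Probes of 1 gene did not always agree. More than 1 probe was present for 37 member genes: the classes differed within 22 of these genes and the calls within 10, and 3 had a high probe beside a low or very low one. An untested probe counted as not called here, and tested probes differed in their call only for *Acta2*, *Lcp1* and *Msn*. These counts were made for the members only, and how they compare with other genes of the array was not tested. The widest gap in ratio was that of *Myo5c* (0.14 and 2.94), followed by *Myh2* (-2.42 to 0.12), *Myh8* (-2.42 to 0.00) and *Myh1* (-1.97 to 0.33). In each of these the probes near 0 were not above background on every array in either channel, so they could not be tested.

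In mouse 2 the 5′ and 3′ probes of some genes stood apart. How far this bears on the differing classes and calls was not tested. For 9 genes with measured probes at least 100 bp apart, the log2 ratio of the probe nearest the 5′ end was set against that nearest the 3′ end, and each mouse against the mean of the others. Relative to the 3′ probe, the 5′ probe was lower in mouse 2 than in the others for 7 of 9 genes, in mouse 1 for 1 and in mouse 3 for 1. In mouse 2 the difference was -2.80 on the log2 scale for *Acta2*, -1.68 for *Msn*, -1.16 for *Rdx* and -1.03 for *Actg1*. The 3 shifts of a gene sum to 0 and are not independent, and the part of RNA length or of the amplification was not tested. The 9 genes leave out the member that is not reported here. Whether mouse 2 differs in this way over all genes of the array was not tested.

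**Figure D5:**
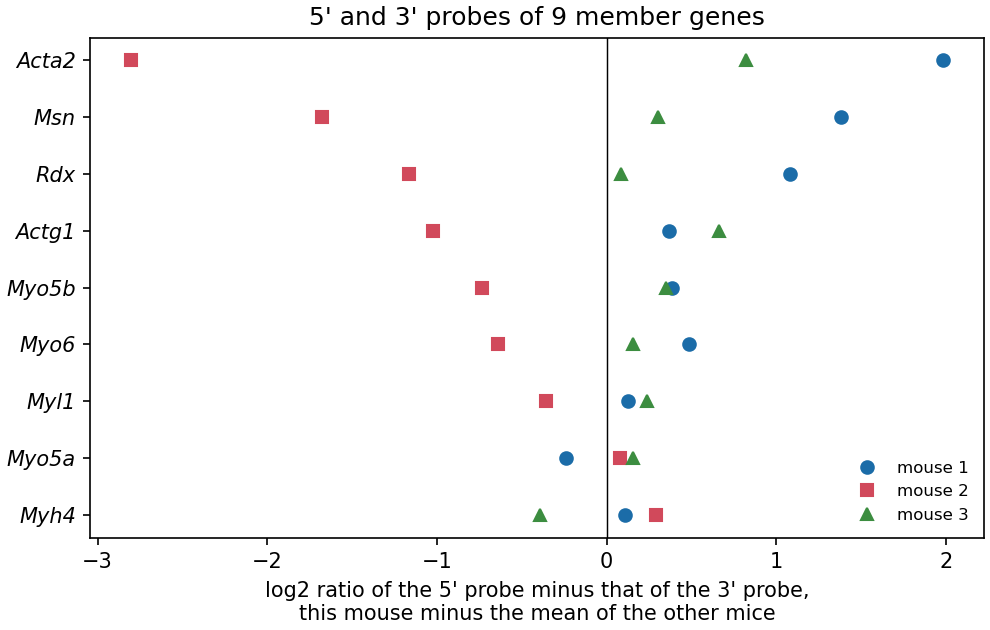
Difference in log2 ratio (CPE over reference) between the 5′ and the 3′ probe of 9 member genes, for each mouse minus the mean of the other mice. Mouse 2 lies to the left of 0, where the 5′ probe is relatively low, for all genes but *Myo5a* and *Myh4*.

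The members' levels varied more between mice in CPE than in the repeated reference. Over the 62 member probes measured in both channels on all arrays, the median SD of the log2 level was 0.47 in CPE and 0.20 in the reference, and 0.30 for the ratio. Over all 17945 such probes it was 0.38, 0.19 and 0.28. Without mouse 3 the members' median SD in CPE was 0.21. The reference SD holds no differences between animals, since all arrays carried the same RNA.

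Other genes of the actin system moved in both directions. Of 80 tested genes outside the members, 9 were higher, 16 were lower and 55 did not pass. By the brightest probe, 8.91% of all genes were higher and 11.3% were lower. The counts below, and those of marker genes above, should be read beside these shares. Among genes of actin turnover and capping, 4 of 31 were higher and 3 lower. Cofilin (*Cfl1*), which severs filaments, had a ratio of 2.15, profilin (*Pfn1*), which feeds monomers to their growing ends, of 1.77 and the Arp2/3 subunit *Arpc4* of 1.5. Thymosin beta 4 (*Tmsb4x*), which binds free monomers, was at least 4.02-fold lower in CPE, a bound because its reference spots were saturated on every array. The subunit *Arpc5* had -2.02 and the capping gene *Capg* -1.56.

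Of 11 regulators of myosin II tested, myosin light chain kinase (*Mylk*, -1.47), *Ppp1r12b* (-1.19), a subunit of the myosin phosphatase, and *Calm2* (-1.29) were lower with 1 other gene, and the small GTPase gene *Rhoa* (1.58) was higher. Of 8 tropomyosin and thin filament genes, 2 were lower and none was higher. Of 12 cross-linkers and cortex genes, 4 were lower and talin (*Tln1*, 1.04) was higher, with protein 4.1 (*Epb4.1*) at -2.53 and the ankyrin gene *Ank2* at -2.23. Of 18 microvillus scaffold and myosin cargo genes, 3 were higher and 3 were lower: the membrane-bending gene *Baiap2l1* had 2.25 and the ERM partner *Slc9a3r2* 1.36, whereas *Prom1*, a gene of membrane protrusions and of photoreceptor discs, had -4.0.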

How the data were processed

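The deposited scanner files hold the mean signal intensity of both dyes per spot, as the authors' Agilent Feature Extraction 9.5.3.1 wrote them, with a log10 ratio per spot, and the deposited table holds log2 values made by the authors with R 2.14.0 and limma. The human arrays were not analysed here. Ranks used the study's steps: log2 mean CPE intensity without background correction, Aquantile normalization, mean of 3 mice, percentile over all probes. Ratios used R 4.3.3 and limma 3.58.1: normexp background correction (offset 50), loess within arrays, lmFit with an intercept and eBayes. Spots of 1 probe were averaged, without controls and spots marked as outliers. Levels of each channel, their SDs and the intensity sums over marker lists came after loess and Aquantile, with each gene of a list taken by its brightest probe. Beside the counts above, 45 of the 87 member probes tested had an adjusted p below 0.05 at any fold. The same fit was tested on simulated data. The number of arrays limits the precision.

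Members and gene lists were chosen with earlier results of these data known. The lists were CPE, smooth muscle and pericyte, skeletal muscle, RPE and melanocyte, photoreceptor, leukocyte, endothelial, stromal, neuronal and ependymal markers, and 5 lists of other actin genes. Stromal markers were lower in CPE for 5 of 6 genes and neuronal ones for 4 of 8. Even so, 5 of the 6 stromal markers were in the CPE high class, and all 6 were above background on every CPE array. They summed to 18723 to 21156 intensity units in CPE and to 116513 to 135129 in the reference. The part of stroma in the results was not tested. Genes were named by rule: per group the 4 of the highest percentile and the 4 largest ratios past the threshold in each direction, the 6 with the most unequal probes, the 5 most variable probes and a fixed list of actin, non-muscle myosin and microvillus genes. *Myl2*, *Myl7*, *Myh3*, *Myh6* and *Myo9a* lie outside it and were named after their values were seen. A gene of the fixed list is counted among the members but not reported here. Promoters were matched by accession for 53 genes and by symbol for 9. Probe positions are on mm8, from the files. Alternatives changed the background correction, scaling, scanner value, filter, array weights, test and mice.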

Additional observations from a re-analysis of the deposited data

How the results depend on the processing

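No paired analysis was possible because the 3 mice form 1 group, each set against the same reference RNA. Testing against a 2-fold change with limma's treat left 12 member probes past the threshold, 4 higher and 8 lower, and 10 other actin genes (25 before). Median centring gave 18 higher member probes in place of 10. Ranking only probes well above background put 12 probes of 9 genes in the high class, in place of 20 probes of 16 genes. The median SD between mice in CPE was 0.780 with median centring of each channel and 0.211 to 0.450 with 1 mouse left out, the lowest without mouse 3. With 1 mouse left out, 27 to 31 member probes were past the threshold, 8 to 12 higher and 17 to 19 lower. The causes were not tested.

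No probe past the threshold changed sign. Ratios near 0 did: with median centring *Actg1* came to 0.39 and 0.10 with its probes, *Actb* to 0.82, *Actn2* to -0.16, *Myh10* to 0.58, *Myo6* to 0.21, *Myo1d* to 0.61 and *Myo1a* to -0.13. The scanner's log ratio put *Actb* at 0.015, *Actn2* at -0.15 and *Myh10* at 0.046, and array weights put them at 0.021, -0.0490 and 0.0047 for *Actb*, *Actn2* and *Myh10*. Without background correction *Myl6* was at -0.0026. With 1 mouse left out, *Rdx* ranged from -0.0518 to 0.116, *Actb* from -0.173 to 0.278, *Actn2* from -0.0988 to 0.0891, *Myh10* from -0.104 to 0.0297, *Myl6* from -0.0952 to 0.151, a dim *Acta2* probe from -0.0600 to 0.0180 and *Vil1* from -0.116 to 0.125.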
